A study of Homo sapiens with 12 samples.

Results

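The sirtuin genes SIRT1 to SIRT7 encode the human NAD-dependent protein deacylases. All 7 were found by gene name, through the Ensembl identifiers of GENCODE release 29, in the count table of an RNA-seq experiment on neuroblastoma cells. They are 7 of 58051 genes in that table, and all 7 were among the 17774 genes with enough counts to be tested. The cells were NB-1, an established neuroblastoma line with amplified MYCN and ALK. They were kept for 48 h in the DMSO vehicle, in 0.5 µM BEZ-235, in 0.5 µM SAHA or in 0.5 µM of each drug together, with 3 biological replicates in each of these 4 groups. BEZ-235, also called dactolisib, inhibits PI3K and mTOR kinases. SAHA, also called vorinostat, inhibits zinc-dependent histone deacetylases. The libraries therefore show how transcripts of the deacylases that SAHA does not block stood under each drug and under both. A single cell line was used, so the replicates are cultures of the same line.

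Sirtuins take acetyl and longer acyl groups off lysine residues and consume a molecule of NAD each time, so their work depends on the enzymes that make NAD and on others that use it up. Classical histone deacetylases hold a zinc ion in their active site, which hydroxamic acids such as SAHA occupy, and the active site of sirtuins holds no such ion. SIRT1, SIRT6 and SIRT7 work mainly in the nucleus, SIRT2 mainly in the cytosol, and SIRT3, SIRT4 and SIRT5 in mitochondria. In neuroblastoma SIRT1 and SIRT2 have been described as supporting the stability of the MYCN protein.

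Each of the 7 genes was called as changed in at least 1 of 6 comparisons. In each of these, between 38.4% and 64.4% of all genes tested were called, so such a call is common. SIRT2 rose 1.46-fold with BEZ-235 and 2.29-fold with both drugs, while its change with SAHA did not pass the test. After correction for GC content and length these rises were 1.55-fold and 1.78-fold, and the change of SIRT2 with SAHA was called (1.15-fold). SIRT4, the least abundant of the 7 in DMSO, rose 2.35-fold with SAHA and 3.84-fold with both drugs. SIRT1 rose 1.57-fold with BEZ-235 and fell with SAHA, and SIRT7 fell with SAHA. SIRT6 fell with BEZ-235 and rose with both drugs, a rise that was not called after correction for GC content.

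Stretches just before the RefSeq start sites of SIRT1, SIRT4, SIRT5 and SIRT6 are shown, the sirtuin genes for which the promoter table gave a long stretch outside exons. They include genes that rose with BEZ-235 (SIRT1 and SIRT5), rose with SAHA (SIRT4) or fell with BEZ-235 (SIRT6). The sequences are from RefSeq (GRCh38.p14), each is read 5′ to 3′ on the strand of its gene, and bases that belong to an annotated exon were left off. Capitals mark matches, on either strand, to one of the motifs CACGTG (the E-box of MYC and MYCN), GTAAACA (FOXO), CGCATGCG (NRF1), CCAAT (NF-Y) and TTTCCCGC (E2F).
SIRT1 chr10:67884406-67884655, plus strand: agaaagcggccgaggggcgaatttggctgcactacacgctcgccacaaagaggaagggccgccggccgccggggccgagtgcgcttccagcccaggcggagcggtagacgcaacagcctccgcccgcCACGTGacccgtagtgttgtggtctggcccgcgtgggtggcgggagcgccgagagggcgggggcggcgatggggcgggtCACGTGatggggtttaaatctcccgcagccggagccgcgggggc
SIRT4 chr12:120302071-120302315, plus strand: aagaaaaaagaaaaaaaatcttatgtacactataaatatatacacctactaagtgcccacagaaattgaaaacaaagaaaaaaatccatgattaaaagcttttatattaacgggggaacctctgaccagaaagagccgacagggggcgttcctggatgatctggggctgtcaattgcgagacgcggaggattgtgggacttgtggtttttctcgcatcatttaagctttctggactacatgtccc
SIRT5 chr6:13574279-13574528, plus strand: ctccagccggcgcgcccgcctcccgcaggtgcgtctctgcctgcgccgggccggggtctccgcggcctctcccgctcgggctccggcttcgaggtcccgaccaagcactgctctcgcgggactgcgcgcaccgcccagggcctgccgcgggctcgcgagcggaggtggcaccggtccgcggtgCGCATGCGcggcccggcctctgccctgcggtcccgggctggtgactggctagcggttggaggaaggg
SIRT6 chr19:4182605-4182813, minus strand: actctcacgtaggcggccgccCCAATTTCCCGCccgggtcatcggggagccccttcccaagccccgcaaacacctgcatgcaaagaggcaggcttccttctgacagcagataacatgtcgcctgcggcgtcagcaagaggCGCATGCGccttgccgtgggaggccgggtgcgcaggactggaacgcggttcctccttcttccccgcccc

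The SIRT1 stretch holds 2 E-boxes, 123 and 44 bases before the RefSeq start. Of 35116 RefSeq promoter entries cut to the same 250 bases, 6.34% hold at least 1 such E-box and 0.535% hold at least 2. The SIRT5 stretch holds an NRF1 motif 67 bases before the start, found in 1.73% of entries at that length. In the 209 bases shown for SIRT6 there is an NRF1 motif 110 bases before the RefSeq start (1.16% of entries at this length). A CCAAT box lies 229 bases before it (28.7%) and shares 1 base with an E2F motif at 225 bases (1.17%). None of the 5 motifs is spelled in the 245 bases of SIRT4. The matches are letters in a window, and binding was not measured.

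The libraries held 17662944 to 79543539 counts (median 20407980), and SAHA replicate 2 was the deepest, with the next at 29544051. Counts per sirtuin gene and library ran from 29 (SIRT4 in DMSO replicate 3) to 4342 (SIRT2 in SAHA replicate 2). All 8 neuroblastoma markers were measured, among them GATA3 and CHGA. They summed to 1410 to 1660 CPM in DMSO (CPM are counts scaled to a common library size), 1200 to 1400 with BEZ-235, 1280 to 1440 with SAHA and 1560 to 2040 with both. Single markers went both ways, with 2 called higher and 3 lower with BEZ-235, 1 and 3 with SAHA, and 3 and 2 with both. Of all genes 50.9%, 43.1% and 64.4% were called. After correction for GC content 3 markers were higher and 4 lower with both drugs, where 65.4% of all genes were called. CHGA was at 505 to 561 CPM in DMSO and 261 to 298 with BEZ-235, and GATA3 at 161 to 179 and 189 to 210. None of 5 leukocyte markers reached a testable level (0.378 to 0.957 CPM summed). Of 5 fibroblast markers 4 were testable, and their sum moved with treatment, at 62.2 to 67.2 CPM in DMSO, 12.4 to 16.8 with BEZ-235, 331 to 355 with SAHA and 85.0 to 122 with both. LUM made up most of this sum (57.3 to 62.5 CPM in DMSO, 314 to 335 with SAHA), and FAP was at 0 in every library. The part of these genes in the sirtuin values was not tested. In bulk RNA, fewer cells of a kind and less RNA per cell cannot be told apart.

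The 3 libraries of the combination stood apart in how counts followed GC content. Relative to the mean of all libraries, genes in the highest quintile of GC content exceeded those in the lowest quintile by 0.44, 0.76 and 1.02 log2 units in combination replicates 1, 2 and 3. In the other 9 libraries this difference was between -0.51 and 0.05, so the groups did not overlap. The median change with both drugs against DMSO went from -0.45 in the lowest quintile (3533 genes) to 0.45 in the highest (3521 genes). With BEZ-235 alone the same medians were 0.05 and -0.14, and with SAHA 0.03 and -0.20. Because all 3 combination libraries carry this trend, an effect of the drug pair and an effect of library preparation cannot be told apart. The sirtuin genes span this range. SIRT1 at 40.5% GC lies in the lowest quintile, SIRT5 (48.2%) and SIRT4 (51.3%) in the middle quintile and SIRT7 (56.6%) in the next. SIRT3 (58.2%), SIRT2 (60.1%) and SIRT6 (64.9%) lie in the highest. Changes of sirtuin genes that involve the combination are therefore mostly given also after a correction for GC content and transcript length, and levels are not corrected.

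**Figure D1:**
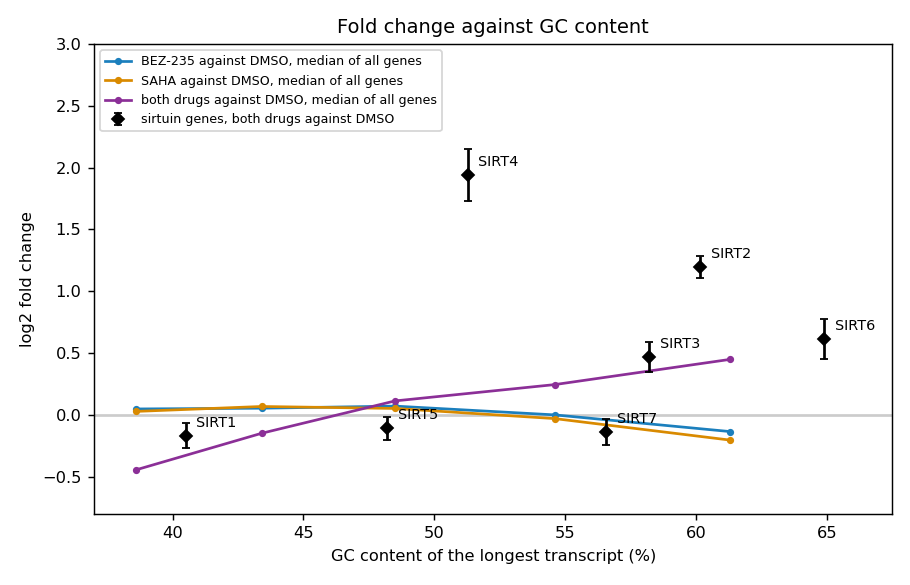
Log2 fold change (y axis) against GC content of the longest transcript in percent (x axis). Lines join the medians of all genes in quintiles of GC content for BEZ-235, SAHA and both drugs against DMSO, and black diamonds with SE bars are the 7 sirtuin genes for both drugs against DMSO. The line for both drugs climbs from -0.45 to 0.45, SIRT4 and SIRT2 lie farthest above it, and SIRT5 and SIRT7 lie below it.

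Values that follow are CPM, scaled with TMM factors, n = 3 libraries per group, and changes are log2 fold changes ± SE. Tests are 2-sided edgeR quasi-likelihood tests with Benjamini-Hochberg adjustment over all 17774 genes, and a gene is called at an adjusted p under 0.05. With BEZ-235 against DMSO 3 sirtuin genes were higher, 1 was lower and 3 were not called, where 50.9% of all genes were called (25.5% higher and 25.4% lower). With SAHA against DMSO 1 was higher and 3 were lower, where 43.1% of all genes were called (22.2% higher and 20.9% lower). With both drugs against DMSO 4 were higher and 0 lower, where 64.4% of all genes were called (33.2% higher and 31.2% lower). After the GC correction 3 were higher and 1 lower with both drugs, where 65.4% of all genes were called. These shares of 4 in 7 are near the background in each comparison. The median change over the 7 genes was 0.34 with BEZ-235, -0.27 with SAHA and 0.47 with both drugs, beside 0.02, -0.01 and 0.03 for all genes. The GC correction lowered the median for both drugs to 0.18.

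**Figure D2:**
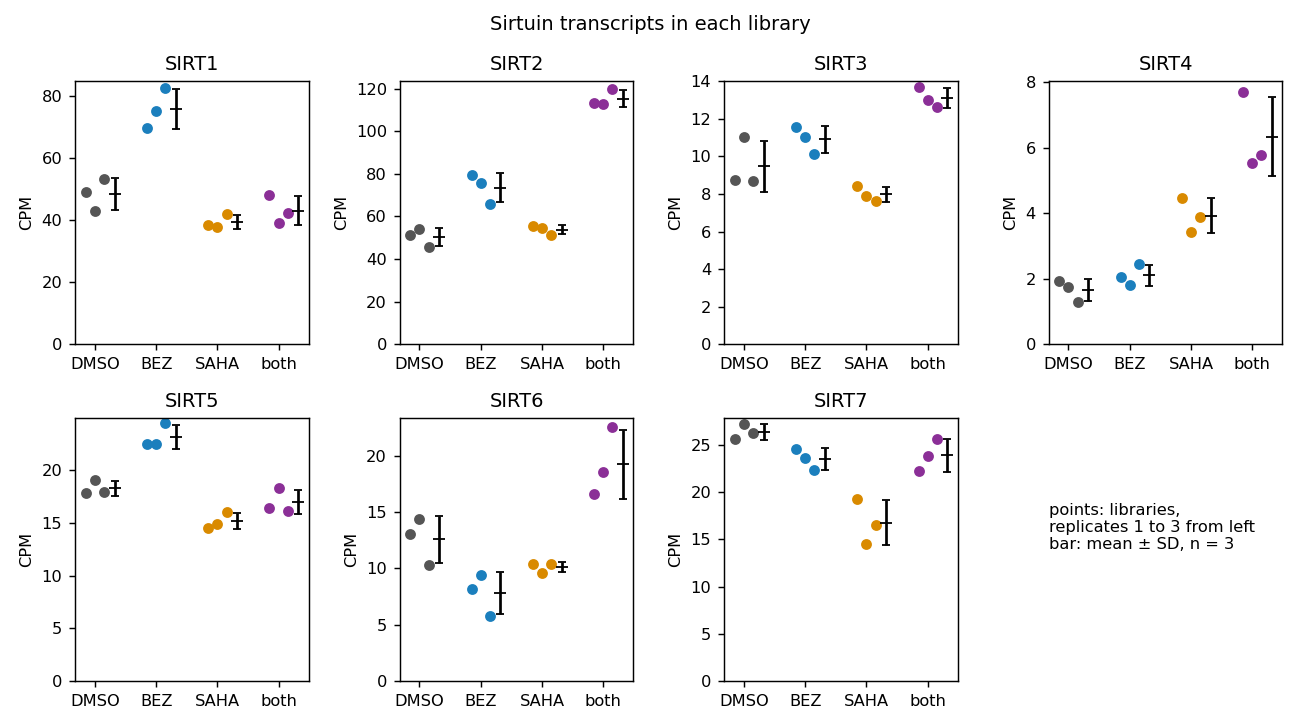
Level of each sirtuin transcript (y axis, CPM, from 0) in the 12 libraries, grouped by treatment (x axis). Points are libraries and bars are mean ± SD (n = 3). SIRT2 stands highest in the combination at 113 to 120 CPM, and SIRT1 stands highest with BEZ-235 at 69.8 to 82.7 CPM.

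SIRT2 (ENSG00000068903, chromosome 19, 38878555 to 38899862 in build hg38, minus strand) encodes the cytosolic sirtuin that deacetylates tubulin. It stood at 51.2, 54.0 and 45.7 CPM in DMSO replicates 1 to 3. With BEZ-235 it was at 79.3, 75.4 and 65.8, with SAHA at 55.4, 54.6 and 51.4, and with both drugs at 113, 113 and 120. The BEZ-235 values were all above the DMSO values, the SAHA libraries overlapped with DMSO, and the combination libraries were above all others. The rise with BEZ-235 was 0.55 ± 0.09 (adjusted p = 5.56e-05), and the change with SAHA was 0.10 ± 0.09 (adjusted p = 0.383). With both drugs SIRT2 rose by 1.20 ± 0.09 (adjusted p = 4.13e-09), and by 0.83 ± 0.07 after the GC correction (adjusted p = 7e-09). Both drugs together also exceeded BEZ-235 alone (0.65 ± 0.08, adjusted p = 6.6e-06) and SAHA alone (1.10 ± 0.08, adjusted p = 1.96e-08). The excess over BEZ-235 shrank to 0.19 ± 0.06 with the GC correction (adjusted p = 0.0175), and that over SAHA to 0.63 ± 0.06 (adjusted p = 3.7e-07). The correction also turned the small SAHA difference into a call (0.20 ± 0.07, adjusted p = 0.017).

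SIRT2 starts 162 bases from NFKBIB, an inhibitor of NF-kappaB that runs the other way, and their exons share 40 bases. The libraries keep strand, but whether the counting used it is not given in the sources used here, so reads in that overlap may be split between the genes. NFKBIB stood at 6.94 ± 0.81 CPM in DMSO and 8.44 ± 1.16 with both drugs (SD, n = 3), which is well under the level of SIRT2.

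SIRT1 (ENSG00000096717, chromosome 10, 67884669 to 67918390, plus strand) encodes a nuclear deacetylase of histones and FOXO factors. In DMSO it stood at 49.1, 42.9 and 53.2 CPM. With BEZ-235 it was at 69.8, 75.4 and 82.7, with SAHA at 38.5, 38.0 and 42.1, and with both drugs at 48.1, 39.0 and 42.3. Every BEZ-235 library was above every library of the other groups, and every SAHA library was below every DMSO library. SIRT1 rose with BEZ-235 by 0.65 ± 0.10 (adjusted p = 4.58e-05) and fell by 0.29 ± 0.10 with SAHA (adjusted p = 0.025). Leaving out DMSO replicate 1 or 3 or SAHA replicate 1 or 2 ended the SAHA call (adjusted p = 0.0689, 0.108, 0.0726 and 0.0956), and the call was kept with the GC correction (-0.33 ± 0.07, adjusted p = 0.00103).

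With both drugs the direction of SIRT1 rested on the correction. It stood at -0.17 ± 0.10 against DMSO (adjusted p = 0.158), which was called lower without DMSO replicate 2 (-0.27, adjusted p = 0.0316) or combination replicate 1 (-0.27, adjusted p = 0.0361). After the GC correction it was called higher, at 0.27 ± 0.07 (adjusted p = 0.00348). Against BEZ-235 alone SIRT1 was lower with both drugs in either fit, by -0.82 ± 0.10 (adjusted p = 3.81e-06) and by -0.40 ± 0.07 after the correction (adjusted p = 0.000159). Against SAHA alone it was at 0.13 ± 0.10 (adjusted p = 0.289) and at 0.60 ± 0.07 after the correction (adjusted p = 2.53e-06).

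SIRT6 (ENSG00000077463, chromosome 19, 4174109 to 4182604, minus strand) encodes a chromatin enzyme that deacetylates histone H3 and takes part in DNA repair and in the restraint of glycolytic genes. It stood at 13.1, 14.4 and 10.3 CPM in DMSO and at 8.20, 9.41 and 5.76 with BEZ-235. With SAHA it was at 10.3, 9.57 and 10.4, and with both drugs at 16.6, 18.5 and 22.5. The BEZ-235 libraries were all below DMSO, the SAHA libraries overlapped with DMSO at its lowest library, and the combination libraries were above all others. SIRT6 fell by 0.70 ± 0.17 with BEZ-235 (adjusted p = 0.00294), and by 0.49 ± 0.11 after the GC correction (adjusted p = 0.00136). With SAHA it was at -0.32 ± 0.16 (adjusted p = 0.127), which was called only without DMSO replicate 3 (-0.45, adjusted p = 0.0478), and at -0.05 after the correction (adjusted p = 0.757).

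With both drugs SIRT6 rose by 0.61 ± 0.16 against DMSO (adjusted p = 0.00358) and by 0.94 ± 0.16 against SAHA alone (adjusted p = 0.000121). Neither call was kept after the GC correction, which left 0.14 ± 0.11 (adjusted p = 0.254) and 0.19 ± 0.10 (adjusted p = 0.145). Against BEZ-235 alone the rise was 1.31 ± 0.17 (adjusted p = 6.9e-06), of which the correction left 0.63 ± 0.11 (adjusted p = 0.000125). SIRT6 has the highest GC content of the 7 genes. Its head-to-head neighbour ANKRD24 starts 750 bases away without overlap and rose in all 3 comparisons with DMSO, from 1.25 ± 0.21 CPM to 2.18 ± 0.24 with BEZ-235, 3.25 ± 1.02 with SAHA and 7.37 ± 2.00 with both (SD, n = 3). ANKRD24 thus rose with BEZ-235 (0.80 ± 0.28, adjusted p = 0.0247) where SIRT6 fell.

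SIRT7 (ENSG00000187531, chromosome 17, 81911939 to 81921323, minus strand) encodes the nucleolar sirtuin, which supports transcription of ribosomal RNA genes. In DMSO it stood at 25.6, 27.2 and 26.2 CPM and with BEZ-235 at 24.6, 23.6 and 22.3. With SAHA it was at 19.2, 14.5 and 16.5, and with both drugs at 22.2, 23.8 and 25.7. The SAHA libraries were below all other libraries. SIRT7 fell by 0.67 ± 0.10 with SAHA (adjusted p = 7.54e-05), and by 0.64 ± 0.08 with the GC correction (adjusted p = 7e-06). With BEZ-235 it was at -0.17 ± 0.10, which did not pass (adjusted p = 0.195) although all 3 libraries were below DMSO. With both drugs it was at -0.14 ± 0.10 (adjusted p = 0.249), and the GC correction made this a call (-0.39 ± 0.08, adjusted p = 0.000581).

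Against SAHA alone SIRT7 was higher with both drugs, by 0.53 ± 0.10 (adjusted p = 0.000387) and by 0.25 ± 0.08 after the correction (adjusted p = 0.0194). The difference from BEZ-235 alone was 0.03 ± 0.10 (adjusted p = 0.844) and turned to -0.28 ± 0.08 after the correction (adjusted p = 0.0101). On the same strand MAFG, a small MAF transcription factor, shares 105 exon bases with SIRT7, so counts there may be split between the genes. MAFG stood at 70.3 ± 1.37 CPM in DMSO, 102 ± 4.60 with BEZ-235, 81.9 ± 2.90 with SAHA and 162 ± 9.33 with both (SD, n = 3), and it was called higher in all 3 comparisons with DMSO. SIRT7 was called lower where MAFG was called higher with SAHA.

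SIRT3 (ENSG00000142082, chromosome 11, 215458 to 236931, minus strand) encodes the main deacetylase of mitochondria, with targets in fatty acid oxidation and oxidant defence. It stood at 8.72, 11.01 and 8.67 CPM in DMSO, 11.6, 11.02 and 10.2 with BEZ-235, 8.44, 7.90 and 7.62 with SAHA, and 13.7, 13.0 and 12.6 with both drugs. The combination libraries were above all others and the SAHA libraries below all others, while BEZ-235 overlapped with DMSO. SIRT3 rose by 0.47 ± 0.12 with both drugs against DMSO (adjusted p = 0.00261), and was not called once GC content was corrected for (0.18 ± 0.11, adjusted p = 0.148). Neither BEZ-235 (0.20 ± 0.12, adjusted p = 0.175) nor SAHA (-0.25 ± 0.12, adjusted p = 0.104) gave a call. The BEZ-235 change was called after the GC correction (0.30 ± 0.11, adjusted p = 0.0262) and without DMSO replicate 2 (0.32, adjusted p = 0.0469).

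Between the treated groups SIRT3 with both drugs exceeded SIRT3 with SAHA, by 0.72 ± 0.12 (adjusted p = 7.25e-05) and by 0.36 ± 0.10 after the correction (adjusted p = 0.00761). The difference from BEZ-235 alone was 0.27 ± 0.12 (adjusted p = 0.0661) and became -0.12 ± 0.11 after the correction (adjusted p = 0.364). SIRT3 shares 316 exon bases with PSMD13, a proteasome subunit read from the opposite strand. Whether the counting used strand is not given, so reads there may be split between the genes. PSMD13 stood at 57.2 ± 3.44 CPM in DMSO and 44.7 ± 4.09 with both drugs (SD, n = 3). PSMD13, the more abundant of the pair, was called lower with both in the uncorrected fit (-0.35 ± 0.09, adjusted p = 0.00248). SIRT3 was called higher there in that fit and was not called after the GC correction.

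SIRT4 (ENSG00000089163, chromosome 12, 120302316 to 120313249, plus strand) encodes a mitochondrial enzyme that restrains glutamate dehydrogenase and thereby the use of glutamine. It stood at 1.93, 1.74 and 1.29 CPM in DMSO and 2.04, 1.82 and 2.45 with BEZ-235. With SAHA it was at 4.47, 3.42 and 3.88, and with both drugs at 7.71, 5.52 and 5.78. These levels rest on 29 to 37 counts per DMSO library, 34 to 57 with BEZ-235, 87 to 272 with SAHA and 100 to 145 with both. The DMSO and BEZ-235 libraries overlapped, all SAHA libraries were above both, and all combination libraries were above SAHA. SIRT4 rose by 1.24 ± 0.21 with SAHA (adjusted p = 0.000179) and by 1.94 ± 0.21 with both drugs (adjusted p = 5.88e-07).

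For SIRT4 the GC correction changed little, giving 1.21 ± 0.20 with SAHA and 1.80 ± 0.20 with both drugs (adjusted p = 9.46e-05 and 5.38e-07). With BEZ-235 alone it was at 0.36 ± 0.22, which did not pass (adjusted p = 0.2). For SIRT4 both drugs exceeded SAHA alone (0.70 ± 0.19, adjusted p = 0.00464, 0.60 after the correction) and BEZ-235 alone (1.58 ± 0.21, adjusted p = 6.92e-06, 1.503 after the correction). In the uncorrected fit all these calls were kept with each library left out in turn. The corrected fit was not run with libraries left out. The only gene that overlaps SIRT4, the small nuclear RNA gene RNU6-1088P, was at 0 in every library.

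SIRT5 (ENSG00000124523, chromosome 6, 13574529 to 13615158, plus strand) encodes the mitochondrial enzyme that removes succinyl, malonyl and glutaryl groups. In DMSO it stood at 17.8, 19.1 and 17.9 CPM and with BEZ-235 at 22.5, 22.5 and 24.5. With SAHA it was at 14.6, 14.9 and 16.03, and with both drugs at 16.4, 18.3 and 16.2. BEZ-235 libraries were all above and SAHA libraries all below every library of the other groups. SIRT5 rose by 0.34 ± 0.09 with BEZ-235 (adjusted p = 0.00525) and fell by 0.27 ± 0.09 with SAHA (adjusted p = 0.0257). Leaving out DMSO replicate 1 or 2 or SAHA replicate 1 or 2 ended the SAHA call (adjusted p = 0.051, 0.0879, 0.0772 and 0.0877), as did the use of no filter on low counts (adjusted p = 0.141). The call was kept with the GC correction (-0.32 ± 0.08, adjusted p = 0.00344).

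With both drugs SIRT5 was at -0.11 ± 0.09 against DMSO (adjusted p = 0.313, 95% interval -0.31 to 0.09) and at 0.16 ± 0.09 against SAHA alone (adjusted p = 0.152). The correction left these at -0.14 and 0.19, again with no call (adjusted p = 0.171 and 0.0673). It was lower than with BEZ-235 alone (-0.45 ± 0.09, adjusted p = 0.000529, -0.44 after the correction). An antisense gene, AL441883.1, overlaps SIRT5 by 1045 bases and reached at most 0.518 CPM in a library, too few counts to test.

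**Figure D3:**
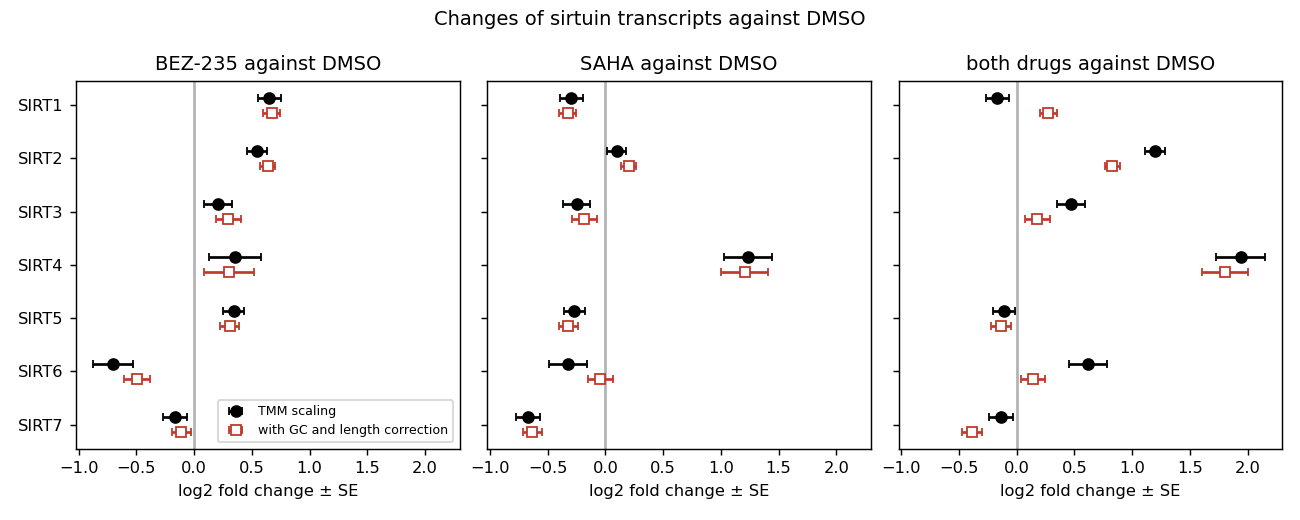
Log2 fold changes ± SE (x axis) of the 7 sirtuin transcripts (y axis) for BEZ-235, SAHA and both drugs against DMSO. Filled circles are the TMM-scaled fit and open squares the fit with GC content and length correction. SIRT4 at 1.24 with SAHA and 1.94 with both drugs, and SIRT2 at 1.20 with both, are the largest rises, and with both drugs the correction moves SIRT6, SIRT1 and SIRT2 most.

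Compared with each single drug, both drugs together gave 3 higher and 2 lower sirtuin genes against BEZ-235, where 58% of all genes were called (29.5% higher and 28.5% lower), and 5 higher and 0 lower against SAHA, where 58.8% were called (29.9% higher and 28.9% lower). After the GC correction these counts were 3 and 3 against BEZ-235 and 5 and 0 against SAHA. Of all genes 55.9% and 52.3% were called in that fit. Whether the SAHA effect differed with and without BEZ-235 was tested as an interaction, in which 38.4% of all genes were called (18.9% higher and 19.6% lower) and 5 sirtuin genes, 4 higher and 1 lower. The interaction was 1.64 ± 0.24 for SIRT6 (adjusted p = 0.000191), 0.70 ± 0.15 for SIRT7 (adjusted p = 0.00184), 0.55 ± 0.12 for SIRT2 (adjusted p = 0.00212) and 0.52 ± 0.17 for SIRT3 (adjusted p = 0.0238). For SIRT1 it was -0.52 ± 0.14 (adjusted p = 0.00839). These directions follow the GC trend, in which the median interaction over all genes went from -0.55 in the lowest quintile of GC content to 0.71 in the highest.

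After the GC correction 19% of all genes and 2 sirtuin genes were called in the interaction. SIRT6 stood at 0.68 ± 0.15 (adjusted p = 0.00605) and SIRT7 at 0.36 ± 0.12 (adjusted p = 0.0429). The call of SIRT7 was lost when a replicate block was added to the correction (0.36, adjusted p = 0.0653). SIRT2 then stood at -0.01 ± 0.09, SIRT1 at -0.07 ± 0.10 and SIRT3 at 0.07 ± 0.15 (adjusted p = 0.96, 0.678 and 0.81). Before the correction SIRT3 also fell short of the threshold when DMSO replicate 2, when BEZ-235 replicate 3 and when SAHA replicate 2 or 3 were left out (adjusted p = 0.0823, 0.0703, 0.0562 and 0.0553), and with no filter on low counts (0.47, adjusted p = 0.0914). SIRT4 (0.35 ± 0.30, adjusted p = 0.379) and SIRT5 (-0.18 ± 0.13, adjusted p = 0.285) gave no interaction call in either fit.

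To compare levels between the genes, CPM were divided by the length of the longest transcript in kilobases. In DMSO the order of levels was SIRT1 (11.8 ± 1.27 CPM per kb), SIRT2 (10.6 ± 0.90), SIRT6 (7.67 ± 1.27), SIRT7 (7.65 ± 0.24), SIRT5 (4.17 ± 0.16), SIRT3 (3.60 ± 0.51) and SIRT4 (1.36 ± 0.27), each as mean ± SD of 3 libraries. SIRT1 and SIRT2, SIRT6 and SIRT7, and SIRT5 and SIRT3 overlapped as neighbours in this order, and SIRT4 was below all others. The lengths of exons merged into one gave the same order in DMSO. The genes have 3 to 21 annotated transcripts, and which of them the cells made was not measured. Orders between genes, sums and shares therefore rest on the length used. With BEZ-235 SIRT1 (18.5 ± 1.58 CPM per kb) did not overlap with SIRT2 (15.5 ± 1.47), and SIRT6 (4.75 ± 1.13) overlapped with SIRT5 (5.28 ± 0.26) and SIRT3 (4.16 ± 0.27).

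With SAHA SIRT4 reached 3.22 ± 0.44 CPM per kb, and its libraries overlapped with those of SIRT5 (3.46 ± 0.18) and SIRT3 (3.04 ± 0.16). With exon lengths SIRT4 (3.21 ± 0.43) lay above every library of SIRT5 (2.33 ± 0.12) and SIRT3 (1.53 ± 0.08). SIRT2 (11.4 ± 0.45) was above SIRT1 (9.65 ± 0.55) there, an order that the exon lengths turned around (8.64 and 8.68). With both drugs SIRT2 led at 24.3 ± 0.83 CPM per kb, followed by SIRT6 (11.7 ± 1.85) and SIRT1 (10.5 ± 1.12), which overlapped. SIRT7 (6.94 ± 0.50), SIRT4 (5.21 ± 0.98), SIRT3 (4.99 ± 0.21) and SIRT5 (3.87 ± 0.26) came next, and of these only SIRT4 and SIRT3 overlapped as neighbours. With exon lengths SIRT1 (9.48) stood above SIRT6 (6.90) and SIRT4 (5.18) above SIRT7 (3.89) in the combination. The levels of all 7 summed to 46.9 ± 1.79 CPM per kb in DMSO, 56.8 ± 1.14 with BEZ-235, 41.7 ± 1.57 with SAHA and 67.6 ± 2.44 with both drugs.

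Within that sum the share of SIRT2 was 22.6 ± 1.06% in DMSO, 27.3 ± 2.16% with BEZ-235, 27.2 ± 1.47% with SAHA and 36.0 ± 0.53% with both drugs. The share of SIRT1 went from 25.3 ± 3.65% in DMSO to 32.7 ± 3.33% with BEZ-235 and 15.6 ± 1.56% with both. SIRT4 made up 2.89 ± 0.51% in DMSO, 7.71 ± 0.76% with SAHA and 7.70 ± 1.45% with both drugs. Levels and shares in the combination were not corrected for GC content, and the 3 sirtuin genes of the highest quintile (SIRT2, SIRT3 and SIRT6) belong to the genes whose median was raised there.

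**Figure D4:**
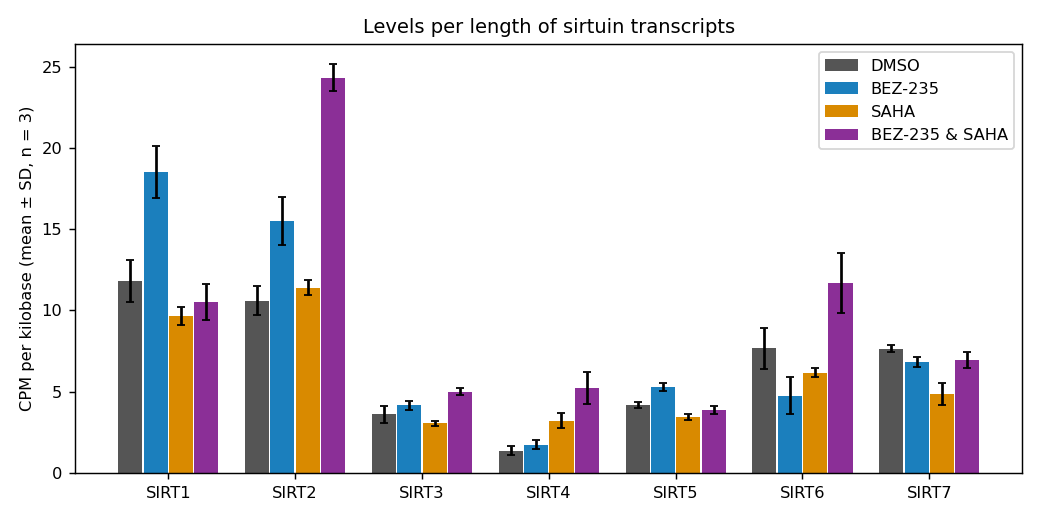
Level of each sirtuin transcript per kilobase of its longest transcript (y axis, CPM per kb, from 0) in the 4 groups, as mean with SD bars (n = 3). SIRT1 and SIRT2 are the highest in DMSO at 11.8 and 10.6, and SIRT2 reaches 24.3 in the combination.

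Patterns of the sirtuin genes were compared with each other across the 12 libraries. Pearson's r of log2 CPM was 0.90 between SIRT1 and SIRT5, both highest with BEZ-235, and 0.89 between SIRT2 and SIRT3, both highest with both drugs. SIRT4, SIRT6 and SIRT7 reached at most 0.67, 0.55 and 0.58 with any other sirtuin gene, and r was -0.64 between SIRT1 and SIRT6. These values describe 12 libraries that form 4 groups and share the GC trend. How often other gene pairs reach such r was not computed. Each sirtuin gene had genes outside the family, given below, with a higher r than any sirtuin gene. Far more candidates lie outside the family than in it, so this does not bear on how alike the sirtuin genes are. Among about 9969 protein-coding genes whose log2 CPM averaged 3 or more, the gene most like SIRT2 was HDAC5 (r = 0.99), a class IIa histone deacetylase, followed by CDIPT (0.99), which makes phosphatidylinositol.

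The genes most like SIRT1 were the zinc finger genes ZNF12 (0.98) and ZBTB44 (0.98). For SIRT4 they were CHP1 (0.98), a calcium-binding protein, and TBL1X (0.98), a subunit of corepressor complexes that hold HDAC3. For SIRT6 they were TST (0.98), a mitochondrial sulfur transferase, and CRIP2 (0.98). ARMCX1 and ZC3H8 (both 0.97) were most like SIRT5, ZFAND2B (0.96) and GTF2F1 (0.95) most like SIRT3, and CROCC (0.97) and D2HGDH (0.96) most like SIRT7. By Spearman's rho 1 of the leading pair was shared for SIRT1 and SIRT5 and 0 for the others.

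The zinc-dependent histone deacetylases that SAHA inhibits, HDAC1 to HDAC11, were set beside the sirtuins. With BEZ-235 6 of the 11 were higher and 2 lower (median 0.35), with SAHA 5 were higher and 2 lower (0.14), and with both drugs 8 were higher and 1 lower (0.45), or 6 and 1 after the GC correction. The medians and called shares of all genes given above are the background for this and the following lists. Changes of single genes in these lists are not corrected for GC content unless stated, which bears most on those with both drugs. HDAC5 stood at 61.8 to 72.6 CPM in DMSO and 217 to 268 with both drugs. It rose by 0.91 ± 0.09 with BEZ-235, by 0.30 ± 0.09 with SAHA and by 1.83 ± 0.09 with both (adjusted p = 4.68e-07, 0.0129 and 6.39e-11). HDAC9, of the same class, rose by 1.44, 0.71 and 1.74 (adjusted p = 2.78e-09, 1.39e-05 and 1.41e-10). HDAC11, whose product removes fatty acyl groups, rose by 0.77 with SAHA and by 1.77 with both drugs (adjusted p = 0.000322 and 1.53e-08). HDAC7 and HDAC10 fell with SAHA, at -0.63 and -0.81 (adjusted p = 5.16e-05 and 0.0149).

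Of 19 genes that make or transport NAD, the substrate of sirtuins, 12 were testable. With BEZ-235 6 were higher and 2 lower, with SAHA 2 and 3, and with both drugs 4 and 4 (medians 0.17, 0.02 and 0.15). After the GC correction 5 were higher and 2 lower with both drugs, with a median of 0. The last step of NAD synthesis is made by NMNAT enzymes. NMNAT2, the neuronal form, rose by 0.79 ± 0.08, 0.69 ± 0.08 and 1.09 ± 0.08 with BEZ-235, SAHA and both (adjusted p = 4.61e-07, 3.17e-06 and 4.53e-09). NMNAT1, the nuclear form, rose from 1.51 ± 0.13 CPM in DMSO to 4.46 ± 0.17 with BEZ-235 and 4.71 ± 0.52 with both (1.56 and 1.64, adjusted p = 8.21e-06 and 2.37e-06). NAPRT, which starts the route from nicotinic acid, fell in all 3 (-1.14, -1.88 and -0.97, adjusted p = 0.00111, 1.58e-05 and 0.0024), and the GC correction took the value with both drugs to -1.53.

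NMRK1, a nicotinamide riboside kinase, had few counts. It stood between 0 and 0.267 CPM in DMSO and between 0.603 and 1.23 with SAHA, a called rise (2.98 ± 0.63, adjusted p = 0.00115). NAMPT, the rate-limiting enzyme of NAD salvage, was at -0.63 ± 0.11 with both drugs (adjusted p = 0.000134) and at 0.02 after the GC correction (adjusted p = 0.842), and it was not called with either drug alone.

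**Figure D5:**
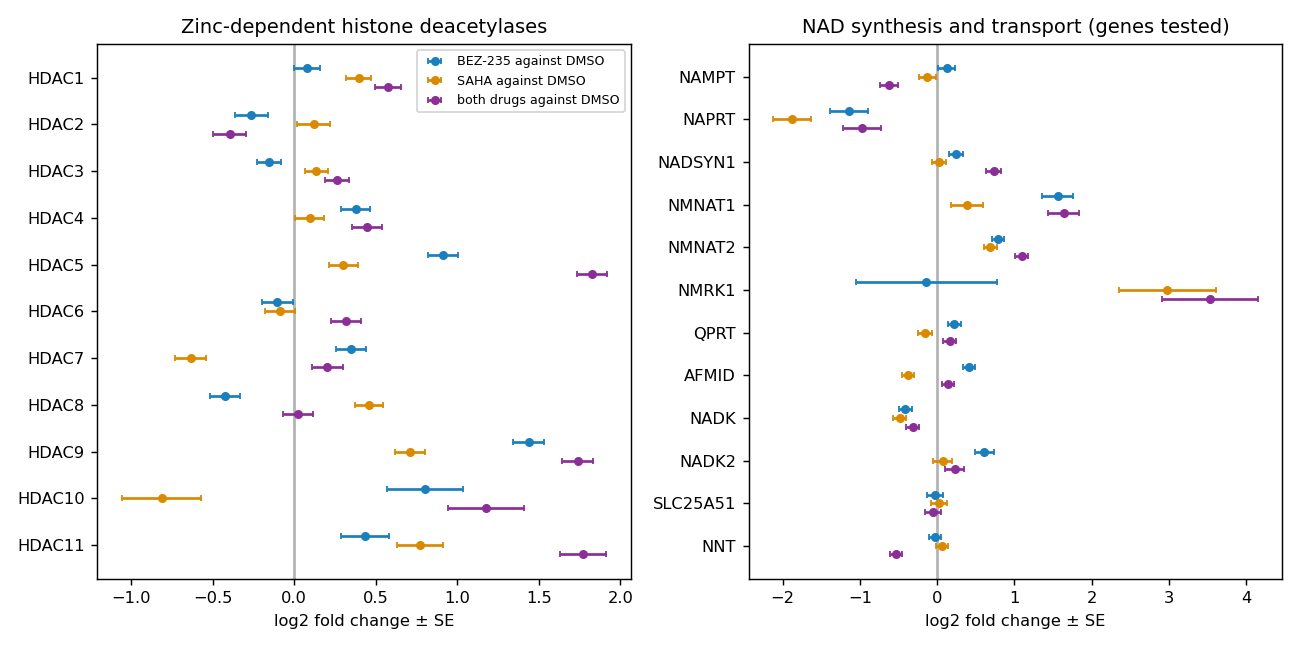
Log2 fold changes ± SE (x axis) of the 11 zinc-dependent histone deacetylase genes and the 12 testable genes of NAD synthesis and transport (y axis) for BEZ-235, SAHA and both drugs against DMSO. HDAC5 and HDAC9 reach 1.83 and 1.74 with both drugs, NMNAT1 and NMNAT2 lie to the right, and NAPRT lies to the left in all 3 comparisons.

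Other enzymes compete with sirtuins for NAD, above all the poly(ADP-ribose) polymerases. Of 16 such genes 13 were testable, with 4 higher and 2 lower with BEZ-235, 2 and 6 with SAHA, and 2 and 6 with both drugs (medians 0.14, -0.02 and -0.29), or 3 and 7 after the GC correction. PARP2, which answers DNA breaks, fell in all 3 (-1.24 ± 0.09, -0.30 ± 0.08 and -1.71 ± 0.09, adjusted p = 5.53e-09, 0.0068 and 7.38e-11), and PARP1 was called lower in all 3 as well. PARP6, a mono-ADP-ribosyltransferase, rose with BEZ-235 and with both drugs (0.89 and 0.80, adjusted p = 4.18e-07 and 6.71e-07).

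Of 14 testable regulators and partners of sirtuins, 2 were higher and 9 lower with both drugs (median -0.30). After the GC correction 3 were higher and 7 lower (median -0.24). Uncorrected counts were 3 and 4 with BEZ-235 (median -0.07) and 1 and 5 with SAHA (-0.17). E2F1, a cell cycle factor described as an activator of SIRT1 transcription, fell with BEZ-235 and with both drugs (-3.32 ± 0.12 and -3.47 ± 0.12, adjusted p = 2.54e-12 and 8.04e-13). FOXO3, another factor that acts on SIRT1, rose by 0.59 ± 0.07 with BEZ-235 (adjusted p = 3.93e-06). BCL6, a repressor that works with SIRT1 in neurons, rose by 1.41 ± 0.17 with SAHA and 1.49 ± 0.17 with both (adjusted p = 6.3e-06 and 1.3e-06).

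Genes for proteins that nuclear or cytosolic sirtuins deacylate went both ways, with 5 higher and 7 lower of 16 with BEZ-235, 3 and 7 with SAHA, and 6 and 6 with both drugs (medians -0.09, -0.12 and 0.06). The GC correction turned the split with both drugs to 4 higher and 8 lower, with a median of -0.24. TUBA1A, an alpha-tubulin and so a SIRT2 substrate, fell with BEZ-235 and with both drugs (-2.54 ± 0.09 and -2.47 ± 0.09, adjusted p = 3.17e-12 and 2.21e-12). PPARGC1A, a coactivator of mitochondrial genes and a SIRT1 substrate, rose by 1.36, 1.11 and 1.46 (adjusted p = 4.51e-09, 1.12e-07 and 8.6e-10).

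For mitochondrial proteins that SIRT3, SIRT4 or SIRT5 act on, 16 of 19 genes were testable, with 2 higher and 6 lower with BEZ-235, 2 and 6 with SAHA, and 6 and 5 with both drugs (medians -0.11, -0.10 and -0.07), or 6 and 6 after the GC correction. IDH2, a NADPH-making SIRT3 target, fell in all 3 (-1.19, -0.82 and -1.67, adjusted p = 1.18e-07, 9.39e-06 and 1.34e-09). CPS1, the urea cycle enzyme that SIRT5 activates, rose with SAHA from 0.555 ± 0.12 CPM in DMSO to 7.71 ± 0.60 (SD, n = 3), by 3.78 ± 0.31 (adjusted p = 1.19e-07). It was lower with BEZ-235 (-1.35 ± 0.48, adjusted p = 0.0284). GLUD1, the glutamate dehydrogenase that SIRT4 restrains, fell by 0.48 ± 0.09 with SAHA (adjusted p = 0.000277). SIRT4 rose with the same drug, and a link between these transcripts was not tested.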

How the data were processed

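Polyadenylated RNA of 12 NB-1 cultures was sequenced in stranded libraries. The authors aligned reads with STAR and estimated counts with RSEM on hg38, per the submitters' processing notes. For versions, annotation and strand setting the sources used here give nothing. Expected counts were deposited (80.07 to 84.75% whole per library), which were rounded. Symbols, coordinates, length and GC content (longest transcript) came from GENCODE 29, which held 57447 of the 58051 identifiers.

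Groups follow the treatment labels. One edgeR 4.0.16 model (R 4.3.3, robust quasi-likelihood, TMM factors 0.9812 to 1.028, filterByExpr, 4 group means, 8 residual degrees of freedom) gave 6 contrasts. It was also run on simulated data in which few genes changed, in 1 group and without a GC trend. That setting is simpler than these data and says nothing on the GC trend. The biological coefficient of variation was 10.6%. Spread between cultures and counting error both limit precision, the latter most for SIRT4.

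The GC and length correction used spline offsets (5 degrees of freedom each), centred per library. The centring was chosen after a first fit was seen. Other alternatives were relative log expression scaling, DESeq2 1.42.0, other filters, unrounded values, a replicate block, leaving each library out, and models limited to the groups of a comparison.

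The members, gene lists and tests were chosen with earlier results of these data known, and the promoter motifs after part of the sequences had been seen. Named genes are the sirtuins, up to 2 called genes per direction, list and comparison by smallest p, the 2 genes most correlated with each sirtuin, and genes overlapping a sirtuin gene or starting within 1000 bases of it. A gene that this rule picks is not reported here. SIRT7 had no match in the promoter table, and SIRT2 and SIRT3 had too few bases outside exons, so none is shown for them.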

Additional observations from a re-analysis of the deposited data

Results flagged for a closer look

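Whether the SAHA effect differed with and without BEZ-235 was tested with edgeR as an interaction, with 3 libraries per group. It was called for 5 of the 7 sirtuin genes and for 38.4% of all genes tested. The interaction was -0.522 for SIRT1, 0.553 for SIRT2, 0.516 for SIRT3, 1.635 for SIRT6 and 0.695 for SIRT7 on the log2 scale. After the correction for GC content and length the same values were -0.07, -0.01, 0.07, 0.68 and 0.36. Of these SIRT6 and SIRT7 passed the threshold, as did 19% of all genes tested. SIRT7 did not pass when a replicate block was added to the correction (adjusted p = 0.0653). SIRT6 is the sirtuin gene with the largest interaction in either fit.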

How the results depend on the processing

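The GC and length correction changed most. It turned SIRT1 with both drugs against DMSO to 0.27, SIRT3 and SIRT7 with both drugs against BEZ-235 to -0.12 and -0.28, and the SIRT2 interaction to -0.01. With the replicate block added to the correction these values were 0.27, -0.12, -0.28 and -0.01. The sirtuin genes called in the interaction went from 5 to 2 with the correction and to 1, SIRT6, with the block added. Calls among all genes went from 6834 to 3378 and to 2872. The cause of these shifts was not tested. The replicate block alone changed no count of sirtuin calls, and for the interaction gave 5 as before, with 6161 calls among all genes. No pairing of cultures by replicate number was seen. Of 18 same-numbered pairs 1 had deviations correlated above 0.1, and 1 of 12 libraries correlated best with its own number. The GC trends of single libraries enter these deviations, so this check cannot exclude a pairing.

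With a library left out, SIRT7 with both drugs against BEZ-235 ranged from -0.026 to 0.075, and it was below 0 without BEZ-235 replicate 3 (-0.014) or combination replicate 3 (-0.026). The number of sirtuin genes called with SAHA against DMSO ranged from 2 to 4, with 2 without DMSO replicate 1, SAHA replicate 1 or SAHA replicate 2. Of all genes 35.1%, 37% and 35% were called without these libraries, beside 43.1% with all libraries. With a library left out, 486 gene values kept direction and side of the threshold, 12 lost and 4 gained a call. Among scaling, tool, filter, rounding and model settings none turned a direction.

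Exon lengths moved the DMSO levels per kb to 8.08 for SIRT2, 1.82 for SIRT3, 2.81 for SIRT5, 4.52 for SIRT6 and 4.28 for SIRT7. Ranking by Spearman's rho shared 1 of the 2 most alike genes for SIRT1 and SIRT5 and 0 for SIRT2, SIRT3, SIRT4, SIRT6 and SIRT7. Depth limits SIRT4 most.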
